A study of Homo sapiens with 8 samples.

Results

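The genes described here are 10 factors of mRNA decapping and of processing bodies (P-bodies): DCP2, DCP1A, DCP1B, EDC3, EDC4, PATL1, DDX6, LSM14A, EIF4ENIF1 and XRN1. They were chosen by gene name, and all 10 were found among 33711 genes, with 92 of the 134605 transcripts listed. They were measured in HCT116, a human colorectal cancer cell line, transfected with siRNA against YTHDF3 (si-YTHDF3) or with a negative control siRNA (NC). The series held 8 libraries, and the expression values came from the 4 input RNA libraries, 2 si-YTHDF3 and 2 NC, taken before m6A immunoprecipitation. The labels do not say that libraries of a group came from separate cultures. Their names match a pair of distinct siRNA sequences that the study lists, so si-YTHDF3 libraries 1 and 2 may also differ in the siRNA used. The NC libraries carry the same numbers, which may instead only count libraries, and the labels do not decide this. Errors and p-values therefore describe only the spread between these libraries.

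Decapping removes the cap from the 5′ end of an mRNA, usually after its poly(A) tail has been shortened, and exposes the body of the mRNA to degradation. DCP2 is the enzyme that cuts the cap, DCP1A and DCP1B are its activating partners, and EDC3, EDC4 and PATL1 help to assemble it on the mRNA. DDX6, LSM14A and EIF4ENIF1 hold mRNAs in a silent state and are needed for P-bodies, the cytoplasmic granules in which these proteins gather, and XRN1 degrades decapped mRNA. YTHDF3 is a cytoplasmic protein that binds N6-methyladenosine (m6A) in RNA, and YTH domain proteins have been linked to mRNA decay.

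Expression is given in FPKM (fragments per kilobase of transcript, relative to the size of the library), and the level of a gene is the sum over its transcripts. In single-exon transcripts of genes with 1 transcript, FPKM times length recurred at 27, 30.5, 30.3 and 29.3 in si-YTHDF3 libraries 1 and 2 and NC libraries 1 and 2. This most frequent value was held by only 61 of 5928, 86 of 5829, 59 of 5419 and 54 of 5887 transcripts. Taken as the value of 1 fragment, which was assumed, this put the depth of each library at 88.5% or more of the deepest. On that basis each of the 10 genes rested on 695 to 8954 fragments per library, a counting error of at most 3.79%. YTHDF3 itself had 2.53 and 3.25 FPKM in si-YTHDF3 libraries, against 25.9 and 11.96 FPKM in NC libraries. Its log2 fold change of -2.27 did not pass the adjusted threshold used below for all genes (limma adjusted p = 0.135). Of 11 epithelial markers 7 reached a mean of 1 FPKM, and their sum was 1702 to 1899 FPKM in si-YTHDF3 and 1620 to 1797 FPKM in NC libraries, while LGALS4 and VIL1, markers of differentiated enterocytes, were at or near 0 and CEACAM5 and CDX1 had no row. The summed fibroblast markers had 11.95 to 13.8 FPKM in si-YTHDF3 and 12.04 to 15.8 FPKM in NC libraries, nearly all of it COL1A1, while COL3A1 and PDGFRB were near 0 and COL1A2, DCN, LUM and PDGFRA had no row. The leukocyte markers had 3.25 to 4.36 FPKM in si-YTHDF3 and 3.27 to 3.29 FPKM in NC libraries, and the endothelial markers stayed under 0.5 FPKM in every library.

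The main comparison asked whether mRNAs of the decapping machinery differed after YTHDF3 knockdown. EDC3 and DCP1B were higher and DCP1A was lower in si-YTHDF3 libraries, by 1.38-fold, 1.26-fold and 0.786-fold. None of the 10 genes passed the adjusted threshold. Folds and their intervals are given on the log2(FPKM + 1) scale of the test. As ratios of mean FPKM the 3 values were 1.43, 1.28 and 0.773. The test was limma on log2(FPKM + 1) across 14457 genes with a mean of at least 1 FPKM, with Benjamini-Hochberg adjustment at 0.05. All 10 genes were tested, and their lowest adjusted p was 0.253. Over all genes 0.0277% were called higher and 0% lower by this rule. At an unadjusted p under 0.05, 2 of the 10 were higher (EDC3 and DCP1B) and 0 were lower, against 8.29% higher and 6.53% lower of all genes. The libraries of both groups lay fully apart for 5 of the 10, EDC3, DCP1B and PATL1 with higher and DCP1A and LSM14A with lower si-YTHDF3 values. Of all genes 25.3% lay apart with higher and 23.7% with lower si-YTHDF3 values, 49% in either direction. Fold changes were positive for 6 and negative for 4 genes, with a median log2 fold change of 0.06, against 0.01 for all genes tested. The counts for the 10 genes were thus near those for the table as a whole.

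**Figure D1:**
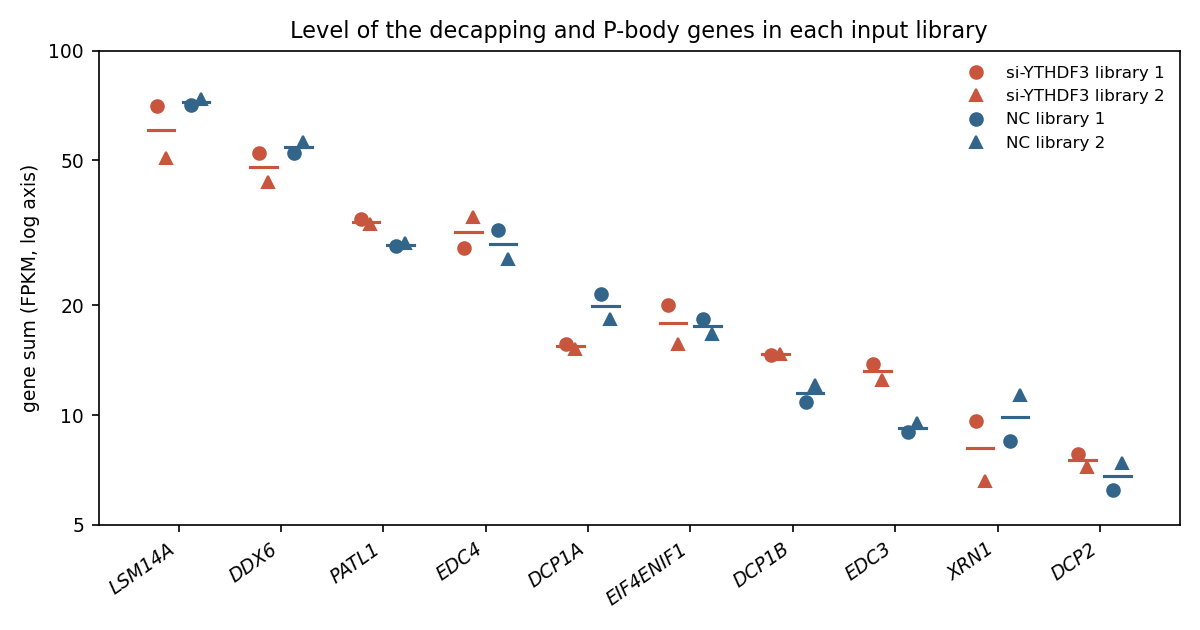
FPKM of each gene (log axis, sum over its transcripts) in the 4 input libraries, si-YTHDF3 in red and NC in blue, circles for library 1, triangles for library 2 and bars for the group means. Genes run from the highest to the lowest mean, 66.5 FPKM for LSM14A to 7.16 FPKM for DCP2, and groups lie fully apart for LSM14A, PATL1, DCP1A, DCP1B and EDC3.

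The levels of the 10 genes spanned 66.5 to 7.16 FPKM as means over the 4 libraries. LSM14A and DDX6 were the most abundant, at percentiles 93.0 and 90.3 of all genes tested, and their libraries overlapped (50.7 to 73.6 and 43.5 to 56.3 FPKM). PATL1 and EDC4 followed at 31.7 and 30.7 FPKM, with all their libraries below those of DDX6, and overlapped each other. DCP1A and EIF4ENIF1 had equal means of 17.7 FPKM and lay below EDC4 in every library. DCP1B at 13.1 FPKM lay below EIF4ENIF1 in every library. DCP1B overlapped EDC3 (11.2 FPKM), EDC3 overlapped XRN1 (9.02 FPKM) and XRN1 overlapped DCP2 (7.16 FPKM). DCP1B and EDC3 had all their libraries above those of DCP2. DCP2, the catalytic subunit, had the lowest mean on this per-length scale, at percentile 41.9 of all genes tested, but overlapped XRN1 and lay above it in si-YTHDF3 library 2.

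DCP2, the decapping enzyme, lies on the plus strand of chromosome 5 (112976702 to 113020970, GRCh38 as for all positions here). It had 7.85 and 7.20 FPKM in si-YTHDF3 libraries, against 6.21 and 7.39 FPKM in NC libraries. The groups overlapped, and the log2 fold change was 0.13 with an SE of 0.148 and a limma adjusted p of 0.698. It was 0.02 without NC library 1, 0.24 without NC library 2 and 0.02 over coding transcripts alone. The 95% interval of the fold, 0.847 to 1.41, leaves out a change of 2-fold in either direction. Transcripts without a coding annotation made up most of the DCP2 sum in every library. The 852-base processed transcript ENST00000504961 made up 36.4% and 39.5% of it in si-YTHDF3 and 34.8% and 50.5% in NC libraries. The full-length coding transcript ENST00000389063, 8947 bases long, had 2.86 and 2.36 FPKM in si-YTHDF3, against 2.28 and 2.42 FPKM in NC libraries, so the coding mRNA also overlapped between groups.

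DCP1A, an activating partner of DCP2 (chromosome 3, 53283428 to 53347610, minus strand), had 15.7 and 15.2 FPKM in si-YTHDF3 libraries, against 21.5 and 18.4 FPKM in NC libraries. The groups did not overlap, with means of 15.4 ± 0.384 FPKM in si-YTHDF3 and 19.98 ± 2.20 FPKM in NC libraries (SD, n = 2 each). DCP1A had a log2 fold change of -0.35 (SE 0.140, limma adjusted p = 0.338). The unadjusted p was 0.0506. Within the gene the main transcripts went in opposite directions. The 5994-base ENST00000610213, which carries most of the gene's coding output, had 11.9 and 11.1 FPKM in si-YTHDF3, against 19.2 and 17.3 FPKM in NC libraries. The 1853-base ENST00000294241, also protein coding, has its 3′ end at 53287370 in place of 53283428. It had 3.40 and 3.86 FPKM in si-YTHDF3, against 1.94 and 0.763 FPKM in NC libraries. The share of the longer form was thus 75.9% and 73.2% in si-YTHDF3 and 89.3% and 93.7% in NC libraries, with no overlap. Their log2 fold changes, -0.62 and 1.02, had unadjusted p of 0.0215 and 0.0429 and did not pass the adjusted threshold (adjusted p = 0.555 and 0.682). With each transcript weighted by its length, which counts fragments over the gene rather than per-length values, the log2 fold change of DCP1A was -0.55, over 1.5 times larger, with an adjusted p of 0.148.

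DCP1B, the paralogue of DCP1A (chromosome 12, 1946054 to 2004535, minus strand), had 14.6 and 14.7 FPKM in si-YTHDF3 libraries, against 10.9 and 12.1 FPKM in NC libraries. The si-YTHDF3 libraries were higher and differed from each other by less than the NC libraries did. DCP1B had a log2 fold change of 0.33 (SE 0.132, unadjusted p = 0.0484, limma adjusted p = 0.335). The opposite directions of the paralogues brought the ratio of DCP1A to DCP1B to 1.07 and 1.03 in si-YTHDF3 libraries, against 1.98 and 1.53 in NC libraries. The ratios did not overlap, but this ratio was chosen after the values had been seen. With 2 libraries against 2, the exact permutation test gave p = 0.333, two-sided, the smallest value that it can give.

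The make-up of DCP1B followed the library number and not the knockdown. The 9-exon coding transcript ENST00000280665 made up 11.5% of the gene in si-YTHDF3 library 1 and 97.3% in si-YTHDF3 library 2, and 9.63% in NC library 1 and 97.5% in NC library 2. Most of the rest lay in ENST00000543381, a 10-exon transcript annotated as a target of nonsense-mediated decay. It had 12.7 and 0.0468 FPKM in si-YTHDF3 libraries 1 and 2, against 8.34 and 0.0516 FPKM in NC libraries 1 and 2. The transcripts are close in length (2086 and 2073 bases), and the gene sum differed little between libraries of a group. What the libraries with the same number share is not given in the labels, and its part in this exchange was not tested.

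EDC3, an enhancer of decapping that binds DDX6 (chromosome 15, 74630558 to 74696043, minus strand), had the largest fold change of the 10 in the plain sums. With length weighting DCP1A and DCP1B were further from 0 (-0.55 and 0.384 against 0.375 for EDC3). Over coding transcripts EDC4 and DCP1A were (-0.59 and -0.35 against 0.32). XRN1 and LSM14A were further from 0 without si-YTHDF3 library 1 (-0.51 and -0.50 against 0.40). Without NC library 1 XRN1 was (-0.45 against 0.43). EDC3 had 13.9 and 12.5 FPKM in si-YTHDF3 libraries, against 8.97 and 9.50 FPKM in NC libraries. The groups lay apart, with means of 13.2 ± 0.958 FPKM in si-YTHDF3 and 9.23 ± 0.377 FPKM in NC libraries (SD, n = 2 each). For EDC3 the log2 fold change was 0.47 (SE 0.135, unadjusted p = 0.0147), the fold 1.38 with a 95% interval of 1.10 to 1.75, and the limma adjusted p 0.253. The main coding transcript ENST00000315127 had 7.63 and 8.90 FPKM in si-YTHDF3, against 7.23 and 6.01 FPKM in NC libraries, a smaller difference (log2 fold change 0.28). The remainder of the gene included ENST00000569606, a 533-base transcript annotated with a retained intron, at 2.55 and 1.86 FPKM in si-YTHDF3 and 0.629 and 0.532 FPKM in NC libraries. Over coding transcripts alone the log2 fold change of EDC3 was 0.32, with an unadjusted p of 0.0639.

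EDC4, the large scaffold that joins DCP1 and DCP2 in human cells (chromosome 16, 67873023 to 67884503, plus strand), had 28.8 and 34.9 FPKM in si-YTHDF3 libraries, against 32.3 and 26.8 FPKM in NC libraries. The gene sums overlapped (log2 fold change 0.10, limma adjusted p = 0.791), and the value was -0.03 without si-YTHDF3 library 2 or without NC library 2. Most of this sum was annotated as non-coding: 9 of the 13 EDC4 transcripts carry a retained intron, and coding transcripts made up only 16.5% and 13.9% in si-YTHDF3 and 28.2% and 24.3% in NC libraries. The coding transcript ENST00000358933 had 4.62 and 4.57 FPKM in si-YTHDF3, against 9.0 and 6.40 FPKM in NC libraries. The retained-intron transcript ENST00000573992 had 12.2 and 16.1 FPKM in si-YTHDF3, against 9.09 and 0.843 FPKM in NC libraries. The coding sum of EDC4 was therefore lower while the whole gene was not, with a log2 fold change of -0.59 over coding transcripts (unadjusted p = 0.0330, adjusted p = 0.327). The log2 fold change of the retained-intron transcript, 1.80, was 0.57 without NC library 2. Another transcript of that kind, ENST00000572221, had 7.73 FPKM in NC library 2 and 1.80 to 2.12 FPKM in the other libraries.

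PATL1, which links the LSM1-7 ring to the decapping enzyme (chromosome 11, 59636716 to 59668980, minus strand), had 34.5 and 33.4 FPKM in si-YTHDF3 libraries, against 29.1 and 29.7 FPKM in NC libraries. Replicates agreed closely and the groups did not overlap. For PATL1 the log2 fold change was 0.20 (SE 0.121, limma adjusted p = 0.468), a fold of 1.15 with a 95% interval of 0.933 to 1.42. PATL1 had 2 transcripts, and 95.8% to 97.5% of its sum lay in the coding ENST00000300146 in every library. Its log2 fold change ranged only from 0.17 to 0.22 over all alternative settings.

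DDX6, an abundant RNA helicase that represses translation and activates decapping (chromosome 11, 118747766 to 118791149, minus strand), had 52.5 and 43.5 FPKM in si-YTHDF3 libraries, against 52.5 and 56.3 FPKM in NC libraries. The groups overlapped, and si-YTHDF3 library 2 was the lowest. The log2 fold change was -0.18 (SE 0.144, limma adjusted p = 0.574), with a 95% interval of the fold of 0.688 to 1.13. It was -0.05 without si-YTHDF3 library 2 and -0.31 without si-YTHDF3 library 1. The coding transcripts ENST00000534980 and ENST00000620157 held most of the gene in every library, and coding forms made up 94.2% and 95.2% of it in si-YTHDF3, against 95.8% and 89.4% in NC libraries.

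LSM14A, a partner of DDX6 needed for P-body formation (chromosome 19, 34172504 to 34229515, plus strand), had 70.7 and 50.7 FPKM in si-YTHDF3 libraries, against 71.0 and 73.6 FPKM in NC libraries. In these plain sums the groups did not overlap, but si-YTHDF3 library 1 lay next to NC library 1 and only si-YTHDF3 library 2 was clearly lower. Their log2 fold change of -0.27 (limma adjusted p = 0.517) was -0.03 without si-YTHDF3 library 2 and -0.50 without si-YTHDF3 library 1. With length weighting both si-YTHDF3 libraries were lower, at 64.6 and 59.8 against 74.2 and 79.2 in NC libraries. That log2 fold change was -0.30 (limma adjusted p = 0.255). Over coding transcripts the groups overlapped, at 51.0 and 43.9 FPKM in si-YTHDF3 and 49.0 and 51.7 FPKM in NC libraries. The isoforms of LSM14A also differed between the si-YTHDF3 libraries. The retained-intron transcript ENST00000588582 had 14.1 and 4.71 FPKM there, against 13.5 and 15.8 FPKM in NC libraries. The coding ENST00000433627 had 4.27 and 20.8 FPKM in si-YTHDF3, against 9.75 and 12.5 FPKM in NC libraries. The most abundant form, the 944-base coding ENST00000586157, had 37.3 and 19.6 FPKM in si-YTHDF3, against 23.3 and 29.7 FPKM in NC libraries. The spread within the si-YTHDF3 group was thus larger than the difference between groups for each of these forms.

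EIF4ENIF1 encodes 4E-T, a protein that binds the cap-binding factor eIF4E and recruits it to P-bodies (chromosome 22, 31436977 to 31496108, minus strand). It had 20.1 and 15.7 FPKM in si-YTHDF3 libraries, against 18.4 and 16.7 FPKM in NC libraries. The groups overlapped and their means differed least of the 10 genes, with a fold of 1.01, a 95% interval of 0.761 to 1.34 and a limma adjusted p of 0.973. Its 13 transcripts were unevenly assigned. The coding ENST00000397523 had 6.86 and 4.71 FPKM in si-YTHDF3, against 3.51 FPKM and a listed 0 in NC libraries. The coding ENST00000330125 had 0.205 and 0.0614 FPKM in si-YTHDF3, against 0.958 and 5.39 FPKM in NC libraries. These forms offset each other in NC library 2, so that the sum over coding transcripts was 12.6 and 11.5 FPKM in si-YTHDF3 and 13.5 and 12.2 FPKM in NC libraries.

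XRN1, the cytoplasmic exonuclease that acts after decapping (chromosome 3, 142306607 to 142448062, minus strand), had 9.67 and 6.61 FPKM in si-YTHDF3 libraries, against 8.48 and 11.3 FPKM in NC libraries. The groups overlapped and XRN1 had the widest spread between replicates of the 10 on the log2 scale. The log2 fold change was -0.26 (SE 0.225, limma adjusted p = 0.600), with a 95% interval of the fold of 0.566 to 1.23. It was -0.02 without si-YTHDF3 library 2 and -0.51 without si-YTHDF3 library 1. The full-length transcript ENST00000264951, 10143 bases long, had 3.11 and 2.80 FPKM in si-YTHDF3, against 3.65 and 2.50 FPKM in NC libraries. The 5383-base ENST00000392981 had 3.72 and 1.46 FPKM in si-YTHDF3, against 2.16 and 5.06 FPKM in NC libraries, and held most of the spread.

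**Figure D2:**
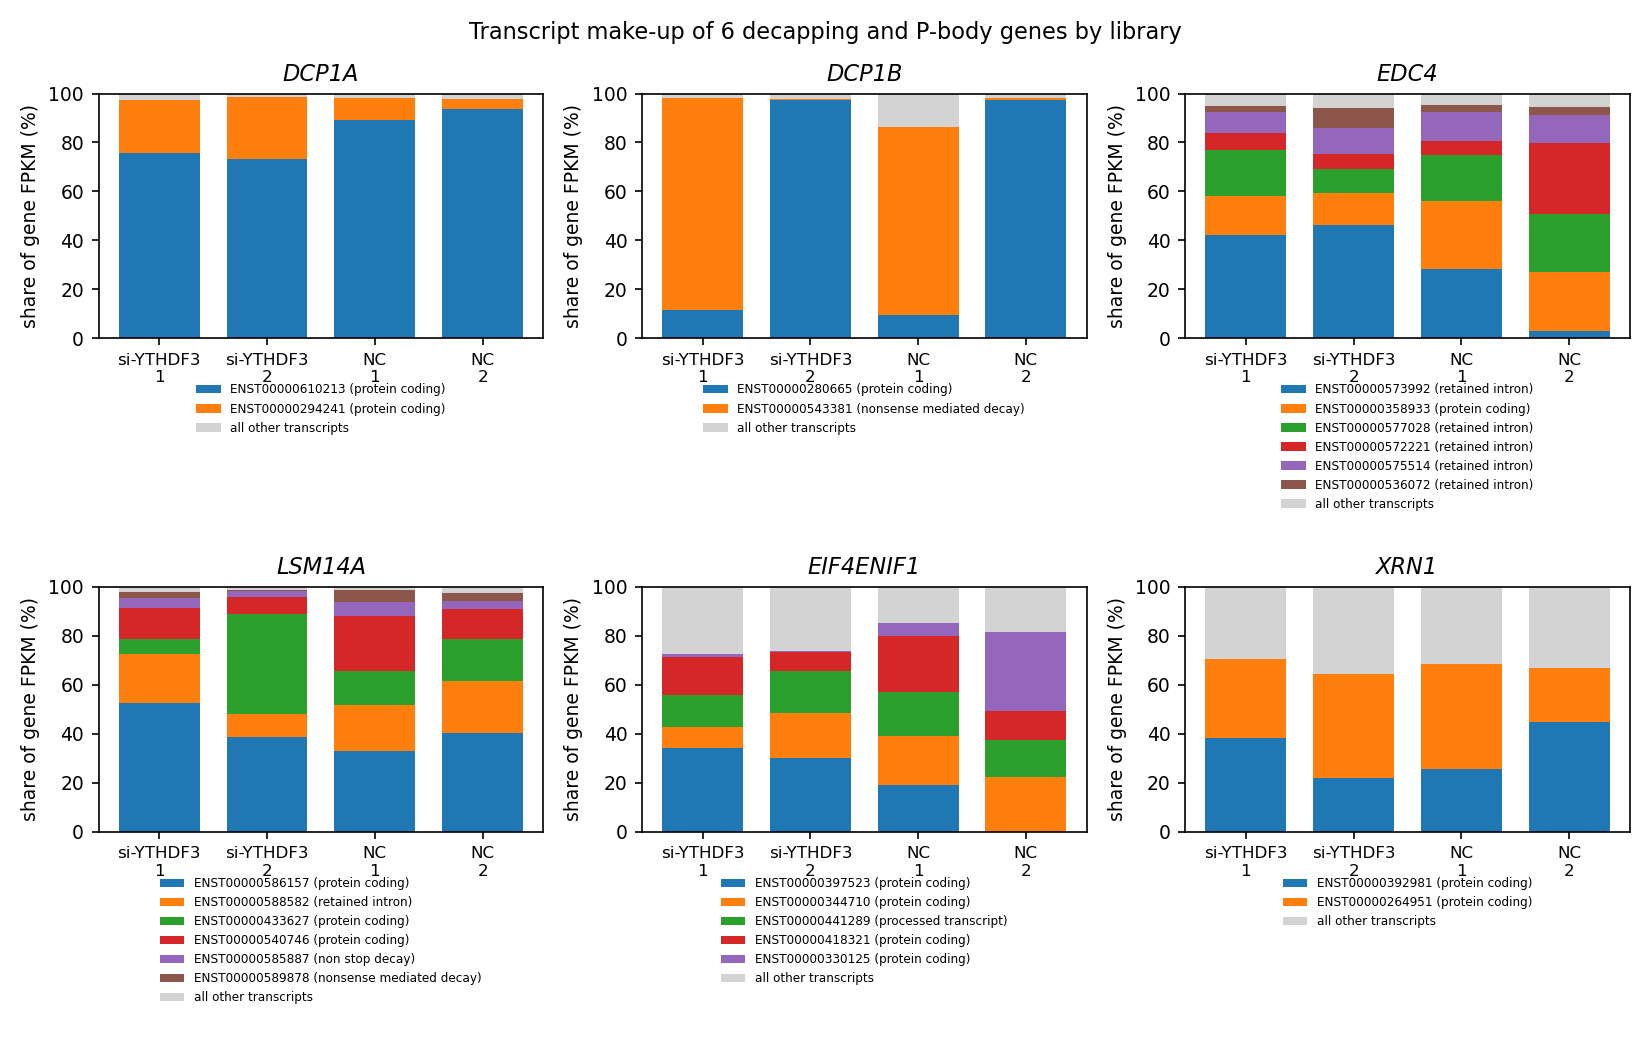
Share of each gene's FPKM (%, vertical axis from 0 to 100) held by transcripts averaging 1 FPKM or more, per library, with the rest in grey, si-YTHDF3 libraries left of NC libraries, for DCP1A, DCP1B, EDC4, LSM14A, EIF4ENIF1 and XRN1. The share of the long DCP1A form is 75.9% and 73.2% in si-YTHDF3 and 89.3% and 93.7% in NC libraries, while DCP1B exchanges its forms between libraries 1 and 2 of each group.

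Of the 92 transcripts, 44 were annotated as protein coding, 30 with a retained intron, 9 as processed transcripts, 8 as targets of nonsense-mediated decay and 1 of non-stop decay. A mean of 1 FPKM was reached by 32, and these were tested among 38284 transcripts. None passed the adjusted threshold (lowest adjusted p = 0.545), as for 0% of all transcripts. At an unadjusted p under 0.05, 2 were higher (ENST00000569606 of EDC3 and ENST00000294241 of DCP1A) and 1 was lower (ENST00000610213 of DCP1A), against 3.98% higher and 3.22% lower of all transcripts (7.21% in either direction). The libraries lay apart for 12 of the 32, against 39.8% of all transcripts.

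In the main fit, 95% intervals of the 10 gene folds reached at most 1.75 upward, for EDC3, and 0.566 downward, for XRN1. A change of 2-fold thus lay outside each interval in this fit of plain sums over all 4 libraries. How transcripts were combined moved several values. With length weighting 4 of the 10 genes had an unadjusted p under 0.05, DCP1B and EDC3 higher and DCP1A and LSM14A lower, against 17.7% of all genes. With coding transcripts alone EDC4 was the only one of the 10, as lower, against 14.2% of all genes. The interval of DCP1B over coding transcripts ran from -2.88 to 3.48, with coding shares of 12.8% and 99.0% in si-YTHDF3 and 11.8% and 99.1% in NC libraries 1 and 2.

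**Figure D3:**
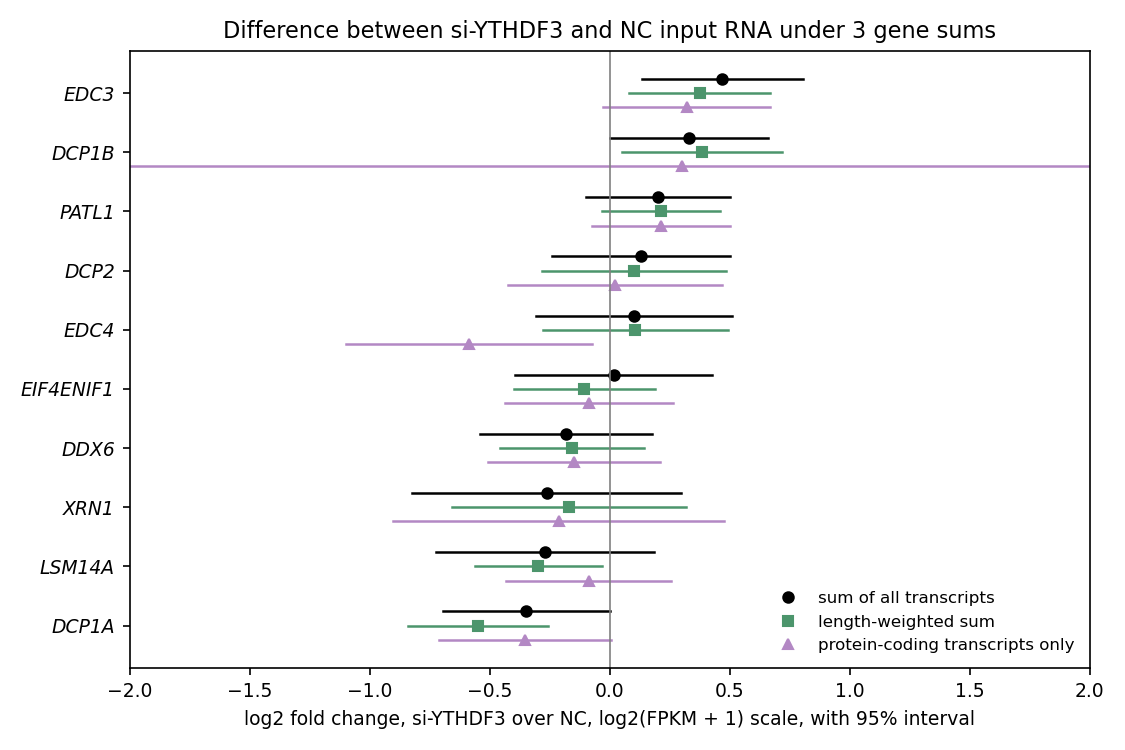
Log2 fold change of si-YTHDF3 over NC with its 95% interval (limma, horizontal axis) for each gene, from the sum of all transcripts (black circles), the length-weighted sum (green squares) and coding transcripts only (purple triangles). EDC3, DCP1B, PATL1 and DCP2 lie to the right and DCP1A, LSM14A, XRN1 and DDX6 to the left under all 3 sums. EDC4 is at 0.10 in the full sum and -0.59 over coding transcripts. The purple interval of DCP1B runs past both edges of the plot, so its sign there is not determined.

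The other genes of mRNA decay and silencing were read from 7 lists with 84 genes, all of which were tested. Of these 7 were higher and 6 lower at an unadjusted p under 0.05, which is 15.5% against 14.8% of all genes, and 0 passed the adjusted threshold (lowest limma adjusted p = 0.130). The median log2 fold change of the 84 genes was 0.0027. The list that stood furthest from 0 was microRNA silencing, with 6 of 8 genes negative and a median of -0.23. At an unadjusted p under 0.05, 2 of the 8 were lower and 0 higher, against 6.53% lower and 8.29% higher of all genes. Libraries lay apart with lower si-YTHDF3 values for 5 of the 8 and with higher values for 0. Of all genes 23.7% lay apart with lower and 25.3% with higher si-YTHDF3 values. TNRC6A, the GW182 scaffold of microRNA-bound Argonaute, had 33.1 and 31.3 FPKM in si-YTHDF3 libraries, against 52.1 and 53.4 FPKM in NC libraries (log2 fold change -0.70, adjusted p = 0.156). AGO3, an Argonaute protein, had 4.01 and 3.56 FPKM in si-YTHDF3, against 4.85 and 6.07 FPKM in NC libraries. The groups did not overlap for either gene.

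Of 8 genes of the cytoplasmic and the nuclear LSM ring, 1 was lower and 0 higher at the unadjusted threshold (median 0.14). For this list and those that follow, the shares over all genes were 8.29% higher and 6.53% lower. The cytoplasmic ring binds the 3′ end of deadenylated mRNA. LSM6, shared by the cytoplasmic and the nuclear ring, had 10.5 and 12.7 FPKM in si-YTHDF3 libraries, against 20.9 and 17.1 FPKM in NC libraries (log2 fold change -0.67, adjusted p = 0.229). Over coding transcripts the LSM6 value turned to 0.40, so its direction depended on which transcripts were summed. Of 8 genes for other decapping and cap enzymes, their cofactors and the exonuclease XRN2, 2 were higher and 0 lower (median 0.11). NBDY, which encodes a microprotein that binds EDC4, had 8.92 and 5.16 FPKM in si-YTHDF3 libraries, against 3.03 and 3.67 FPKM in NC libraries, or 0.85 as log2 fold change (adjusted p = 0.260), and 0.51 without si-YTHDF3 library 1. NUDT3, a Nudix hydrolase with decapping activity, had a log2 fold change of 0.39.

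Among 7 deadenylases outside CCR4-NOT and deadenylation adaptors, 1 was higher and 0 lower (median 0.04). It was BTG2, an antiproliferative adaptor of CCR4-NOT, at 23.99 and 24.7 FPKM in si-YTHDF3 libraries, against 12.9 and 12.1 FPKM in NC libraries (log2 fold change 0.91, adjusted p = 0.130). Of 17 genes of the exosome, SKI and other decay from the 3′ end, 1 was higher and 1 lower (median -0.09). They were the exonuclease DIS3L2 with 0.36 and the SKI scaffold TTC37 with -0.42. Of 20 P-body RNA-binding regulators 2 were higher and 1 lower (median -0.01): MEX3A with 0.54, SAMD4B with 0.46 and RC3H2 with -0.59. RC3H2 moved to -0.28 without NC library 1. Of 16 stress granule genes 1 was higher and 1 lower (median 0.02). G3BP2, a nucleator of stress granules, had 60.3 and 75.5 FPKM in si-YTHDF3 libraries, against 33.9 and 37.5 FPKM in NC libraries (log2 fold change 0.90, adjusted p = 0.156), while its paralogue G3BP1 had -0.20 and the helicase DDX3X had -0.32.

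**Figure D4:**
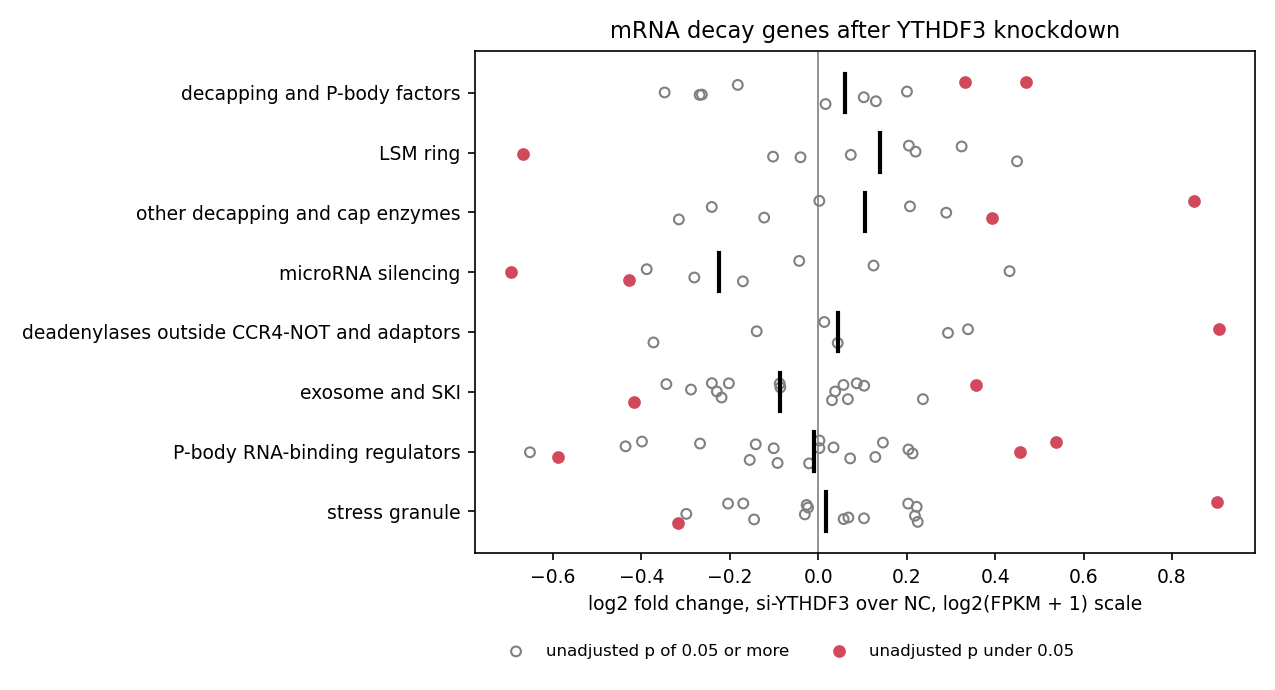
Log2 fold change of si-YTHDF3 over NC (horizontal axis) for each gene of the 10 decapping and P-body factors and of 7 lists of mRNA decay genes, filled where the unadjusted p was under 0.05, with a black bar at the median of each row. Medians run from -0.23 for microRNA silencing to 0.14 for the LSM ring, and no gene shown passed the adjusted threshold.

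The list of differential m6A peaks used here held 99 peaks, all on chromosome 1. None of the 10 genes lies on that chromosome, so m6A on their mRNAs was not analysed here. Among the genes of the 7 lists, 9 peaks fell in UBAP2L (3), AGO1 (2), AGO4, MOV10, PABPC4 and PNRC2 (1 each).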

How the data were processed

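For total RNA of the 4 input libraries, the table deposited by the authors gives FPKM for each Ensembl transcript, with build GRCh38 named in the submitters' processing notes. Aligner and quantifier: not given in the sources used here. Besides FPKM, the deposited table holds the authors' own fold changes, p-values and q-values, and the peak list their own enrichment changes. These were not used, and only peak positions and gene names were read.

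FPKM of all transcripts were summed per gene. Features with a mean of at least 1 FPKM went into limma 3.58.1 as log2(FPKM + 1) (mean trend, no covariate, Benjamini-Hochberg over all features) in R 4.3.3, after a test on simulated data. Tables and figures were made with Python 3.11.15 and matplotlib 3.10.9. Log2 fold changes on this scale understate low genes. The members and lists were chosen with earlier results of these data known. Always named were the 10 genes and YTHDF3, the top transcript of each gene, transcripts at an unadjusted p under 0.05 or with a share differing by over 20 percentage points, and up to 4 genes per list at an unadjusted p under 0.05. Other transcripts, and G3BP1 and MEX3C, were named after their values were seen. Over all genes tested, differences between libraries 1 and 2 were not positively correlated between groups (r = -0.11). The number was therefore tried as a block only as an alternative. Single genes did follow the number, such as the DCP1B forms above. MEX3C had 18.5 and 4.09 FPKM in si-YTHDF3 libraries 1 and 2, and 18.8 and 2.74 FPKM in NC libraries 1 and 2.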

Additional observations from a re-analysis of the deposited data

How the results depend on the processing

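Each value of the 10 genes was recomputed under 15 alternatives, of which the crossed pairing was chosen after seeing the data. Of 150 such values 142 kept their sign and stayed above the adjusted threshold, and 8 changed sign. The lowest adjusted p of any of the 10 genes was 0.148 (DCP1A, length-weighted sum). EDC4 turned to -0.59 over coding transcripts and ranged from -0.032 to 0.24 without single libraries. EIF4ENIF1 turned to -0.012 when scaled to total FPKM, -0.11 with length weighting and -0.084 over coding transcripts, and ranged from -0.15 to 0.19 without single libraries. LSM6 turned to 0.40 over coding transcripts. Of the transcripts, ENST00000504961 turned to 0.0040 with a pseudocount of 0.1 and ranged from -0.30 to 0.28 without single libraries. ENST00000280665 ranged from -0.99 to 1.65, ENST00000392981 from -0.83 to 0.11, ENST00000534980 from -0.25 to 0.036 and ENST00000586157 from -0.40 to 0.49. The causes of these turns were not tested.

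The count of the 10 genes higher at an unadjusted p, 2, was 1 when scaled to total FPKM, with TMM scaling and without the mean trend, 0 over coding transcripts, 0 without si-YTHDF3 library 1 or NC library 1 and 1 without si-YTHDF3 library 2 or NC library 2. The count lower, 0, was 1 with no filter, with a filter at 5 FPKM, with each other scaling and over coding transcripts, 2 with length weighting and 0 to 1 without single libraries. Over all genes, the 1199 higher and 944 lower at an unadjusted p became 1050 and 1112 when scaled to total FPKM. They were 1159 and 1007 with TMM scaling, 1169 and 989 centred on the median and 1218 and 917 without the mean trend. With a filter at 5 FPKM, which tests fewer genes, they were 846 and 719. They were 1362 and 1236 of 14648 with length weighting and 856 and 749 of 11333 over coding transcripts. The median log2 fold change of the 10 genes, 0.06, was -0.086 over coding transcripts, -0.0026 with length weighting and -0.039 without si-YTHDF3 library 1 or without NC library 2.

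Over all genes, the 4 higher and 0 lower at the adjusted threshold became 0 and 0 with no filter, 13 and 2 with a filter at 5 FPKM, 18 and 12 with length weighting and 0 and 0 over coding transcripts. Without single libraries they were 0 to 41 and 0 to 26. In these fits the lone library of a group was assumed to vary like the other group. At an unadjusted p the 1199 higher and 944 lower genes became 1763 and 1459 with no filter and 660 to 1171 and 506 to 913 without single libraries. The 1525 higher and 1234 lower transcripts became 4544 and 3466 with no filter and 618 and 510 with a filter at 5 FPKM.

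With the replicate number as a block, 81 genes were called higher and 51 lower at the adjusted threshold, none of them among the 10. At an unadjusted p under 0.05 in this fit, 1 of the 10 was higher (EDC3) and 0 were lower. Of the 14457 genes tested, 1058 were higher and 764 lower by that rule. With the crossed pairing as a block, 0 genes were called at the adjusted threshold. At an unadjusted p, 2 of the 10 were higher and 1 lower, against 1497 higher and 1271 lower of the 14457 genes tested. Under the replicate block YTHDF3 passed the adjusted threshold (limma adjusted p = 3.1e-04), as it did without NC library 1 (0.0251) and without NC library 2 (0.00421).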
